A study of Rattus norvegicus with 62 samples.

Results

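The genes described here are 7 targets of the nuclear receptor PPAR alpha that the heart is known to use in fasting: Pdk4, Pdk2, Ucp2, Ucp3, Acot1, Acot2 and Cpt1a. They were followed in hearts of male Wistar rats given rosiglitazone. Every probe set whose platform annotation named exactly 1 gene, that gene being a member, was taken, whatever its values. This gave 13 probe sets for the 7 genes, out of 14217 genes with such a probe set and 31042 probe sets in all. A further probe set named Acot2 together with Acot1 and was left out. Rats received vehicle or rosiglitazone at 10 or 80 mg/kg/day, by mouth and once daily for 14 days. Cardiac muscle was taken 6, 24, 168 or 336 h after the last dose, which makes 12 groups on 62 Affymetrix arrays. The vehicle groups held 4, 6, 5 and 5 arrays in that order of time, the 10 mg/kg groups 5, 5, 5 and 6, and the 80 mg/kg groups 5, 5, 6 and 5. The age of the rats and the hour of sampling were not given in the sources used here. The hearts were cut lengthwise before storage, and the labels do not say which chambers each sample held. The labels number the arrays of a group, but nothing says that each came from a separate animal, and p-values here reflect only how far these arrays spread, which may be technical.

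PPAR alpha is a receptor for fatty acids that pairs with RXR on DNA and raises genes of fatty acid use, above all in heart, liver and muscle and above all in fasting. Its targets in this set act at the switch between glucose and fat: pyruvate dehydrogenase kinases hold back the oxidation of pyruvate, CPT1 admits long-chain fatty acids to mitochondria, acyl-CoA thioesterases release fatty acids from CoA, and uncoupling proteins are carriers of the inner mitochondrial membrane. Rosiglitazone is an agonist of the related receptor PPAR gamma, whose main tissue is fat, so these genes show whether the heart's fatty acid programme moved with the drug.

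The arrays differed in brightness, with median deposited signals between 31.1 and 86.9, a ratio of 2.79, and all levels below are log2 signals after quantile normalization of the arrays. Within groups, arrays correlated by rank at 0.885 to 0.952, and no pair of arrays held identical values. The heart label was borne out by the level of 7 cardiac muscle markers, with means from 12.65 (Ryr2) to 14.07 (Tnnt2). Their summed signal lay between 88300 and 95100 on every array, but quantile normalization itself holds such bright values close together. The sum of 4 atrial muscle markers ranged much wider, from 610 to 24600, and 10 arrays stood apart in the atrial light chain Myl7, at 9.33 or more against 8.71 or less on the others. These 10 were 1 vehicle, 4 of the 10 mg/kg and 2 of the 80 mg/kg arrays at 6 h, and 3 of the 80 mg/kg arrays at 24 h. On 3 further arrays, all of vehicle (1 from 6 h, 2 from 24 h), the actin probes of the 3' end stood highest above those of the 5' end. The log2 difference was 1.68 on the 6 h array and 2.12 and 1.75 on those of 24 h, against 1.45 or less on the others. Such a difference can be a sign of degraded RNA. The arrays also fell into 3 clusters of overall expression, of 21, 21 and 20 arrays, and the second cluster held all 16 arrays of 336 h and 5 others. Time and cluster therefore cannot be told apart at 336 h, apart from what those 5 arrays show. The hexokinase control probes also compare the 3' with the 5' end. Their log2 difference lay between 1.38 and 1.97 in the first cluster, 1.42 and 2.45 in the second and 2.09 and 6.08 in the third. Of the 3 arrays of high actin difference, that of 6 h was at 1.55 and those of 24 h at 2.35 and 6.08. At 24 h the third cluster held 5 of 6 vehicle arrays and 1 of 5 at 80 mg/kg. The part of RNA quality in the clusters was not tested. Adipoq, Plin1, Cidec and Lep of white fat were below the filter on low signal, as were Ucp1 and Dio2 of brown fat, Myh2, Myh4 and Tnnt3 of skeletal muscle, and Apoa1 and Serpina1 of liver. Other genes of the same lists passed. These were Cfd and Pck1 of white fat (means of 5.86 and 5.32) and Cidea and Ppargc1a of brown fat (10.65 and 9.23). Acta1, Myh1 and Tnni2 of skeletal muscle (13.12, 12.13 and 6.58) and Alb of liver (6.45) passed too. That filter is on the mean of all arrays, and 1 array, replicate 1 of 10 mg/kg at 24 h, stood apart in fat genes: Ucp1 was at 10.32, Adipoq at 7.64 and Cidec at 7.42 there, against 5.37, 5.83 and 4.73 on the next highest array for each gene.

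Of the 13 probe sets, 12 passed the filter, which kept the 18625 probe sets with a mean log2 level of at least 5.03 over all arrays. Levels are those of single probe sets and cannot be ranked between genes. The brighter Pdk4 probe set, 1378074_at, had a mean of 10.21 and lay between 8.85 and 11.28, and 1369150_at had a mean of 7.51. Pdk2 was measured by 1367892_at, with a mean of 11.18, and by 1386975_at, with a mean of 9.44. Ucp2 had 1 probe set, 1368669_at, with a mean of 10.86. Both Ucp3 probe sets were dim: 1382958_at had a mean of 6.63 and reached down to 3.96, and 1387681_at had a mean of 6.39. For Acot2 the means were 10.65 at 1384115_at, 10.00 at 1391433_at and 8.65 at 1388210_at. Cpt1a, the isoform of liver and most other tissues, which heart muscle holds beside Cpt1b, had means of 8.97 at 1386946_at and 7.82 at 1367836_at. The only Acot1 probe set, 1398250_at, was at a mean of 4.03, the 25.5th percentile of all probe sets, and failed the filter.

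**Figure D1:**
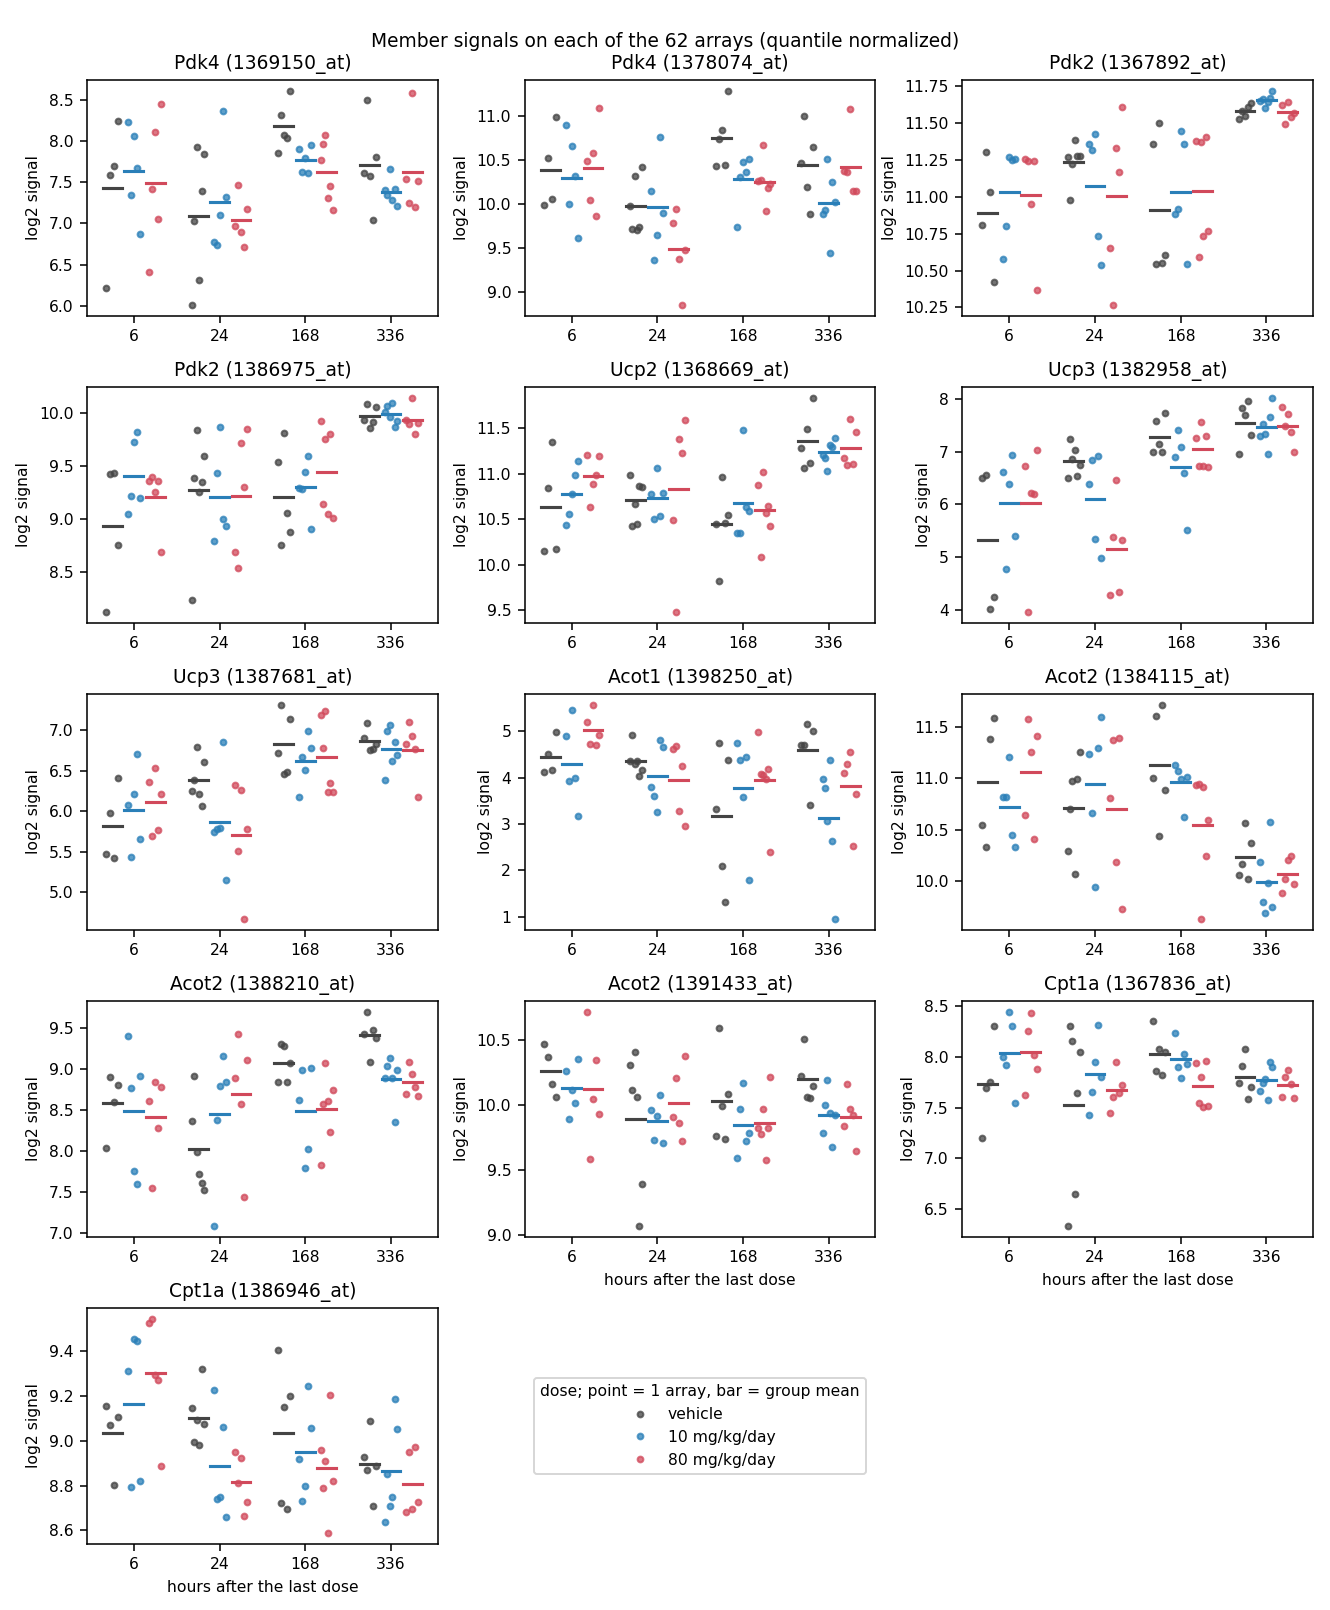
Log2 signal (quantile normalized) of the member probe sets on the 62 arrays, by dose and hours after the last dose. Each point is an array and each bar a group mean; the 80 mg/kg points of Ucp3 1382958_at at 24 h lie below the vehicle points of that time, those of 1387681_at overlap them, and the Pdk2 and Ucp2 points of 336 h are high at every dose.

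No member responded to rosiglitazone at an adjusted p under 0.05 at either dose or at any time. Differences were tested with limma's moderated test and Benjamini-Hochberg adjustment over the 18625 probe sets, and both doses were set against the same vehicle arrays. At 80 mg/kg against vehicle, 0 of 12 member probe sets were called at 6 h, against 0.0537% of all probe sets. The count was 0 of 12 also at 24 h, against 0.14%, at 168 h, against 0.0537%, and at 336 h, against 0.29%. Unadjusted p-values under 0.05 were found for 0, 5, 2 and 0 of the 12 at these times, beside 6.65%, 11.1%, 5.44% and 6.97% of all probe sets. With such small backgrounds, a count of 0 among 12 is also what the whole table gives. The medians of the 12 log2 differences were 0.20 at 6 h, -0.05 at 24 h, -0.21 at 168 h and -0.08 at 336 h, where the medians of all probe sets lay between -0.02 and 0.01. At 336 h the differences of all 12 lay below 0, the largest being -0.58 at Acot2 1388210_at (limma, adjusted p = 0.788). That common sign depended on the scaling: 4 of the 12, both Pdk2 probe sets, Pdk4 1378074_at and Ucp2, lay above 0 when arrays were divided by their median. The members share arrays, so that such a sign is a description only.

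The lower dose gave the same counts. At 10 mg/kg against vehicle, 0 of 12 were called at each of the 4 times, as were 0% of all probe sets, and 0, 1, 0 and 0 of the 12 had an unadjusted p under 0.05. The member medians were 0.14 at 6 h, -0.01 at 24 h, -0.17 at 168 h and -0.11 at 336 h. Between the doses, 0 of 12 were called at each time, where 0%, 0.0107%, 0.0376% and 0.102% of all probe sets were, and 0, 1, 0 and 0 had an unadjusted p under 0.05. Averaged over the times, which narrows the error, 0 of 12 were called at 80 mg/kg (0.478% of all probe sets), at 10 mg/kg (0.0107%) and between the doses (0.188%), and none of the 12 had an unadjusted p under 0.05 in these 3 comparisons by limma. The 95% intervals of these averages reached no farther from 0 than 0.77 at 80 mg/kg and 0.63 at 10 mg/kg, in both cases at Ucp3 1382958_at. The effect of 80 mg/kg differed between times for 0 of 12 (0.0215% of all probe sets; 3 of the 12 at an unadjusted p under 0.05), and the effect of 10 mg/kg for 0 of 12 (0%; none of the 12 at an unadjusted p under 0.05). A lower level in these bulk samples can mean fewer cells of a type or less RNA per cell, which cannot be told apart.

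**Figure D2:**
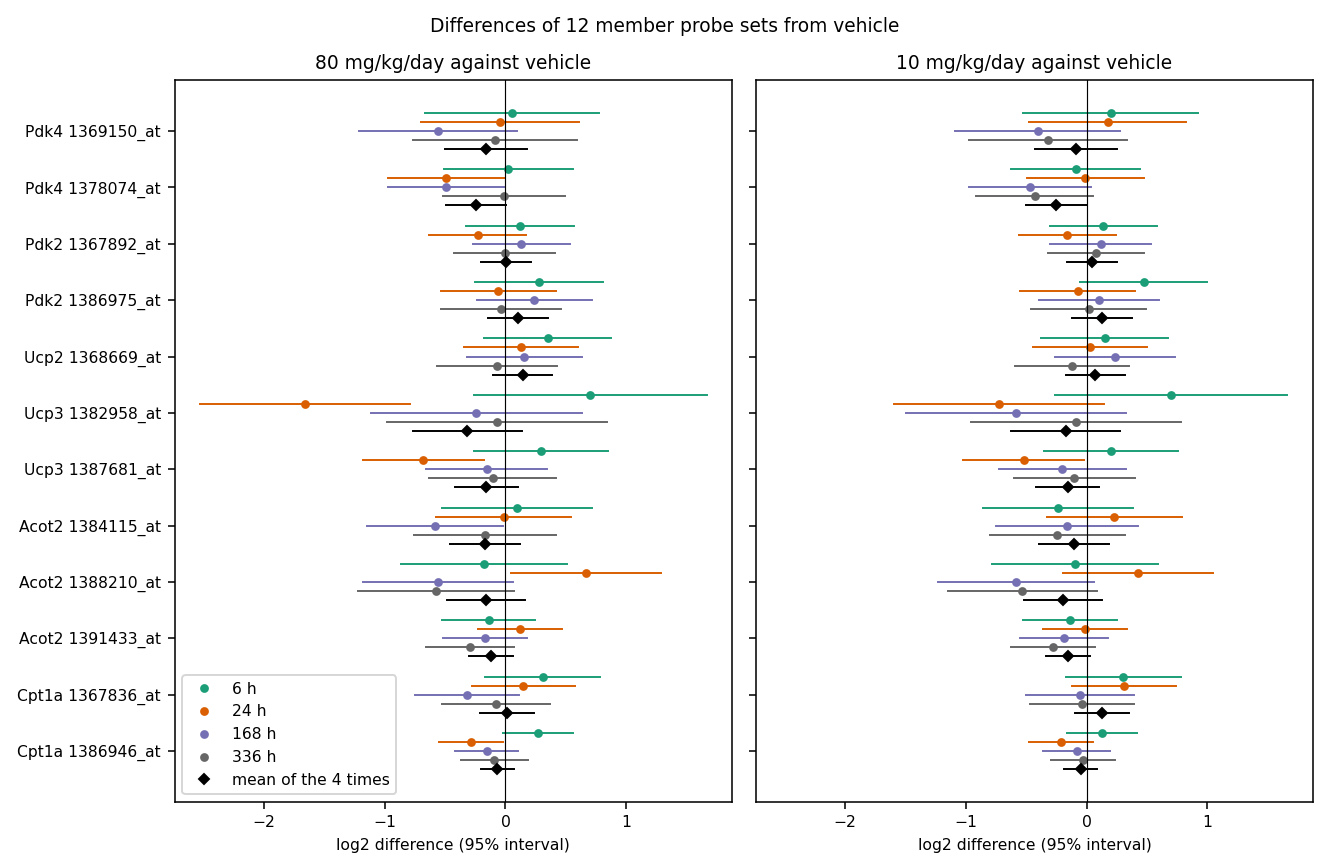
Log2 difference from vehicle of the 12 kept member probe sets at 80 mg/kg/day (left) and 10 mg/kg/day (right), with 95% intervals from limma; colours mark the time and black diamonds the mean of the 4 times. Most intervals cross 0, and the farthest from 0 is Ucp3 1382958_at at 80 mg/kg and 24 h, at -1.66.

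Pdk4 is the kinase of pyruvate dehydrogenase that fasting induces most in heart. At 168 h the vehicle arrays of 1378074_at read 10.43, 10.74, 10.84, 10.44 and 11.28. The 10 mg/kg arrays read 9.73, 10.31, 10.47, 10.37 and 10.51, and the 80 mg/kg arrays read 10.26, 10.27, 10.67, 9.92, 10.18 and 10.22. All treated arrays were below the vehicle mean of 10.75 ± 0.35 (SD, n = 5), though the ranges met. The differences were -0.47 (SE 0.25) at 10 mg/kg and -0.49 (SE 0.24) at 80 mg/kg, with limma's adjusted p at 1 and 0.905. At 24 h the 80 mg/kg arrays read 9.78, 9.94, 9.38, 8.85 and 9.48 and the vehicle arrays between 9.70 and 10.42, a difference of -0.49 (SE 0.24, limma adjusted p = 0.445), while 10 mg/kg differed by -0.01. Without the arrays of high Myl7, 3 of the 5 at 80 mg/kg, the 24 h difference was -0.27 (limma adjusted p = 0.82). Averaged over the times, Pdk4 was at -0.24 (SE 0.13, limma adjusted p = 0.545) at 80 mg/kg and at -0.25 (SE 0.13, adjusted p = 0.998) at 10 mg/kg. The other probe set, 1369150_at, gave -0.16 and -0.09 for these averages. Across the 12 groups both Pdk4 probe sets were lowest at 80 mg/kg and 24 h (means of 9.49 and 7.04) and highest in vehicle at 168 h (10.75 and 8.18), beside a spread within groups of 0.40 and 0.55 (pooled SD).

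Pdk2 is the kinase of the same enzyme that the heart holds without fasting, and neither probe set was called at either dose. Averaged over the times, 1367892_at differed from vehicle by 0.00 (95% interval -0.20 to 0.21) at 80 mg/kg and by 0.04 (-0.16 to 0.25) at 10 mg/kg. For 1386975_at these averages were 0.11 and 0.13. The largest single difference was 0.47 at 1386975_at, at 10 mg/kg and 6 h (SE 0.26, limma adjusted p = 0.808), where the 10 mg/kg arrays lay between 9.05 and 9.82 and the vehicle arrays between 8.12 and 9.44.

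Ucp3, the uncoupling protein of heart and skeletal muscle, showed the farthest member difference by dose. At 24 h the vehicle arrays of 1382958_at read 6.49, 7.25, 6.87, 7.03, 6.53 and 6.75. The 10 mg/kg arrays read 6.38, 6.84, 5.34, 6.92 and 4.99, and the 80 mg/kg arrays read 4.29, 5.38, 6.47, 4.34 and 5.33. Vehicle arrays kept close together, treated arrays spread widely, and all 5 arrays of 80 mg/kg lay below all 6 of vehicle, though the highest came within a few hundredths. Of all probe sets, 0.698% had every 80 mg/kg array below every vehicle array at this time. The means were 6.82 ± 0.29 (SD, n = 6) for vehicle, 6.10 ± 0.88 (n = 5) for 10 mg/kg and 5.16 ± 0.90 (n = 5) for 80 mg/kg. The log2 difference of 80 mg/kg from vehicle was -1.66 (SE 0.43, 95% interval -2.53 to -0.79), with an unadjusted p of 0.000348 and limma's adjusted p = 0.11. Arrays at 4.29 and 4.34 lie below the filter level of 5.03, near the floor of the arrays, so that the size of this difference is uncertain. The difference at 10 mg/kg was -0.72 (SE 0.43, limma adjusted p = 0.858), or -0.80 without the array high in fat genes, and between the doses it was -0.93 (SE 0.45, adjusted p = 1).

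The second Ucp3 probe set, 1387681_at, lay on the same side with overlapping groups. Its vehicle arrays at 24 h lay between 6.06 and 6.80, and its 80 mg/kg arrays read 6.32, 5.50, 6.26, 4.67 and 5.78. The difference was -0.68 (SE 0.25, limma adjusted p = 0.318) at 80 mg/kg and -0.52 (SE 0.25, adjusted p = 0.848) at 10 mg/kg. At 6 h, 168 h and 336 h the 80 mg/kg differences of 1382958_at were 0.70, -0.24 and -0.07, and the test that they differ between times gave limma's adjusted p = 0.507. Atrial markers moved with the 24 h comparison: their summed signal had a median of 12900 (1370 to 24600) at 80 mg/kg and of 1710 (1390 to 2540) in vehicle. The 3 arrays of high Myl7 at 80 mg/kg read 4.29, 6.47 and 4.34 for Ucp3 1382958_at and the other 2 read 5.38 and 5.33, and without the high-Myl7 arrays the difference was -1.46 (limma adjusted p = 0.244). With the array cluster as a block the difference was -1.71 (limma adjusted p = 0.233). The skeletal muscle marker sum had medians of 17800 at 80 mg/kg and 13100 in vehicle. Of its 6 genes 3 passed the filter (Acta1, Myh1 and Tnni2), and Myh2, Myh4 and Tnnt3 did not. The sum follows its brightest genes, Acta1 and Myh1 (means of 13.12 and 12.13), with Tnni2 far lower (6.58). Whether it marks skeletal muscle in these samples was not tested. Dividing arrays by their median in place of quantile normalization gave -1.71 and limma's adjusted p = 0.0328, a call. That scaling moved the median of all probe sets to -0.17 and turned 26 calls, 53.8% of them higher at 80 mg/kg, into 214 calls with 7.01% higher. Over all alternatives the adjusted p ran from 0.0328 to 0.355, and the difference from -1.98 to -1.27.

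**Figure D3:**
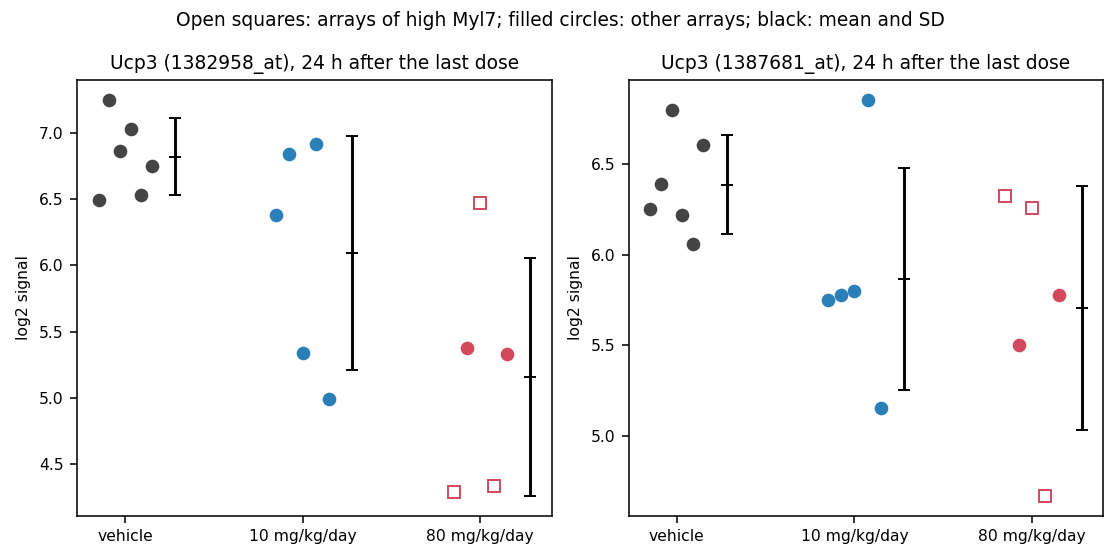
Ucp3 levels (log2 signal, quantile normalized) on each array at 24 h after the last dose, for vehicle and both doses, at 1382958_at and 1387681_at. Circles are arrays, open squares arrays of high Myl7, and black marks the mean with its SD; at 1382958_at the 80 mg/kg arrays lie between 4.29 and 6.47 and the vehicle arrays between 6.49 and 7.25.

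Ucp2 is the uncoupling protein found in many cell types, macrophages included, and lies beside Ucp3 on rat chromosome 1. It did not share the position of its neighbour at 24 h: at 80 mg/kg it read between 9.48 and 11.58 and in vehicle between 10.43 and 10.98, a difference of 0.13 (95% interval -0.35 to 0.60). Averaged over the times it was at 0.14 (SE 0.12, limma adjusted p = 0.792) at 80 mg/kg and at 0.07 (SE 0.12, adjusted p = 0.998) at 10 mg/kg. The summed signal of 8 macrophage and leukocyte markers, 7 of which passed the filter, lay between 1120 and 1850 on all arrays, with group medians from 1300 to 1660.

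Acot2 is the mitochondrial acyl-CoA thioesterase, and Acot1, its neighbour on chromosome 6, is the cytosolic form. The 3 Acot2 probe sets did not move together: within groups, 1384115_at correlated with 1388210_at at -0.21 and with 1391433_at at -0.37, and 1388210_at with 1391433_at at 0.37 (Pearson's r, 62 arrays, a description). For comparison, the paired probe sets of Pdk4, Pdk2, Ucp3 and Cpt1a correlated at 0.71, 0.72, 0.41 and 0.27. Acot2 values are therefore those of a probe set and not of the gene. At 24 h, 1388210_at read 8.90, 9.43, 8.57, 7.45 and 9.11 at 80 mg/kg and between 7.53 and 8.92 in vehicle, a difference of 0.67 (SE 0.31, limma adjusted p = 0.417), which was 0.12 with the cluster as a block and 1.25 without the high-Myl7 arrays. At 336 h the same probe set read between 8.67 and 9.08 at 80 mg/kg and between 9.09 and 9.70 in vehicle, with a difference of -0.58 (SE 0.32, limma adjusted p = 0.788). Its groups touched without overlapping (9.08 against 9.09), and 1.23% of all probe sets had every 80 mg/kg array below every vehicle array at that time. At 168 h 1384115_at differed by -0.58 (SE 0.28, adjusted p = 0.892) at 80 mg/kg and by -0.16 at 10 mg/kg. Acot1 was of low signal in every group, with group means between 3.13 and 5.02 and deposited signals of 11.3 to 41.2. In a fit without the filter its largest difference was -1.47 (95% interval -2.52 to -0.41, limma adjusted p = 1), at 10 mg/kg and 336 h, where arrays spread from 0.95 to 4.37 against 3.41 to 5.16 in vehicle. Such levels are near the floor of the arrays, and the size of a difference there has little meaning.

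Cpt1a encodes the carnitine palmitoyltransferase that fasting raises in liver. At 24 h the vehicle arrays of 1386946_at read 9.15, 8.99, 9.09, 8.98, 9.32 and 9.07 and the 80 mg/kg arrays 8.95, 8.81, 8.92, 8.66 and 8.73. The groups did not overlap, as for 0.698% of all probe sets with every 80 mg/kg array below every vehicle array at this time. The difference was only -0.29 (SE 0.13, limma adjusted p = 0.413), and at 10 mg/kg it was -0.21. The other probe set, 1367836_at, was at 0.15, but at -0.12 on the deposited scale, -0.10 with the Myl7 covariate and -0.37 without the high-actin arrays, so that its sign was not settled. Averaged over the times, Cpt1a was at -0.07 (95% interval -0.20 to 0.07) and 0.01 (-0.21 to 0.24) at 80 mg/kg, the narrowest limits among the members at 1386946_at.

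In contrast to dose, the time after the last dose separated several members, and the clusters bore on them unequally. In the vehicle arrays alone, 5 of 12 member probe sets differed between the 4 times by limma's moderated F test, against 8.05% of all probe sets: Ucp3 1382958_at (adjusted p = 0.00786) and 1387681_at (0.0268), Acot2 1388210_at (0.0108), Pdk2 1386975_at (0.0279) and Ucp2 (0.0467). Ucp3 1382958_at had vehicle means of 5.33 ± 1.39 (SD, n = 4) at 6 h, 6.82 ± 0.29 (n = 6) at 24 h, 7.29 ± 0.35 (n = 5) at 168 h and 7.55 ± 0.41 (n = 5) at 336 h. The 4 vehicle arrays at 6 h read 6.50, 6.56, 4.02 and 4.25, so the low mean came from 2 of them. With the cluster as a block, 0 of 12 were called, beside 53 of all probe sets, but the sizes moved unequally. The range between vehicle times went from 2.22 to 1.90 for Ucp3 1382958_at (limma adjusted p = 0.213) and from 1.05 to 0.96 for 1387681_at (0.426), while it went from 1.04 to 0.24 for Pdk2 1386975_at, from 0.91 to 0.33 for Ucp2 and from 1.39 to 0.62 for Acot2 1388210_at. Left-out arrays also mattered: the calls of Acot2 1388210_at held without each of the 20 arrays in turn, those of Ucp3 were lost for 2 (1382958_at) and 3 (1387681_at) arrays, with adjusted p up to 0.065 without vehicle replicate 6 and 0.0905 without replicate 5, both of 6 h. The call of Pdk2 was lost for 7 arrays (up to 0.0745, without vehicle replicate 3 of 336 h) and that of Ucp2 for 15 (up to 0.163, without vehicle replicate 6 of 336 h).

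Between adjacent times in vehicle, 0 of 12 were called for 24 h against 6 h (0.226% of all probe sets; 3 of the 12 at an unadjusted p under 0.05 by limma) and 0 of 12 for 168 h against 24 h (0%; 4 of the 12). For 336 h against 168 h, 1 of 12 was called, against 4.55% of all probe sets. This was Ucp2, whose vehicle arrays read 10.45, 9.82, 10.96, 10.45 and 10.55 at 168 h and 11.28, 11.06, 11.49, 11.12 and 11.83 at 336 h, without overlap. In this comparison 2.92% of all probe sets had every array of 336 h above every array of 168 h. Ucp2 rose by 0.91 (SE 0.25, limma adjusted p = 0.0256), or 1.88 times. Pdk2 was near it, at 0.67 (adjusted p = 0.0503) and 0.77 (0.0586), also without overlap, and Acot2 1384115_at was at -0.89 (0.0624). The Ucp2 call was lost without vehicle replicate 2 (0.75, limma adjusted p = 0.122), 4 (0.91, 0.0651) or 5 (0.94, 0.0529) of 168 h, and without replicate 4 (0.88, 0.0574) or 6 (0.79, 0.0747) of 336 h. With the cluster as a block the Ucp2 difference was 0.31 (adjusted p = 0.887).

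Averaging the 3 doses at each time, a contrast chosen after the data were seen, used more arrays, with the same vehicle arrays among them. For 336 h against 168 h, 4 of 12 were called, against 26.9% of all probe sets, so that the members' share was near that of the table. Pdk2 rose by 0.61 (1367892_at, SE 0.12, limma adjusted p = 8.87e-05) and 0.65 (1386975_at, SE 0.14, 0.000349), and Ucp2 rose by 0.72 (SE 0.14, 9.21e-05). Acot2 1384115_at fell by 0.78 (SE 0.16, 0.000273), while 1388210_at was at 0.36 and 1391433_at at 0.09, not called. With the cluster as a block these 4 differences were 0.07, -0.01, 0.09 and 0.21, with limma's adjusted p at 0.85 or above, so that Pdk2 1386975_at and Acot2 1384115_at changed sign. The 5 arrays of the second cluster from other times lay toward the levels of 336 h for these genes, though Pdk2 1367892_at had a mean of 11.45 on them and 11.61 (n = 16) at 336 h. Pdk2 1367892_at lay between 11.49 and 11.72 on the 16 arrays of 336 h, between 11.33 and 11.61 on those 5 arrays, and between 10.27 and 11.45 on the 41 arrays of the other clusters. For Ucp2 these ranges were 11.03 to 11.83, 10.96 to 11.58 and 9.48 to 11.48, and for Acot2 1384115_at 9.69 to 10.57, 9.63 to 10.44 and 10.07 to 11.71. Ucp3 1382958_at did not follow the cluster in this way, with means of 7.50 at 336 h, 6.37 on the 5 arrays and 6.32 in the other clusters. What sets the clusters apart was not tested.

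The kinase and the uncoupling protein of fasting, Pdk4 and Ucp3, were the members called between earlier times. For 24 h against 6 h over the 3 doses, 1 of 12 was called, against 0.854% of all probe sets: Pdk4 1378074_at fell by 0.56 (SE 0.15, limma adjusted p = 0.0467), from a median of 10.40 (9.61 to 11.08, n = 14) to 9.76 (8.85 to 10.76, n = 16). This call was weak, being lost for 19 of 30 arrays left out in turn (adjusted p up to 0.133, without vehicle replicate 6 of 6 h). Without the 10 arrays of high Myl7, 7 of which were of 6 h, it was -0.34 (adjusted p = 0.788). Clock genes, most of which moved with this contrast, are described after the pathway genes. For 168 h against 24 h, 1 of 12 was called, against 0.0483% of all probe sets, which is 9 probe sets in all. Ucp3 1387681_at rose by 0.72 (SE 0.15, limma adjusted p = 0.0256), from a median of 6.14 (4.67 to 6.85, n = 16) to 6.69 (6.17 to 7.31, n = 16), and remained at 0.72 (adjusted p = 0.0282) with the cluster as a block. The other Ucp3 probe set was at 0.99 (SE 0.25, adjusted p = 0.159) and Pdk4 at 0.62 (0.0676) and 0.73 (0.167). The Ucp3 call was lost for 6 of 32 arrays left out in turn, with adjusted p at 0.0507 without 10 mg/kg replicate 6 and at 0.07 and 0.0563 without vehicle replicates 2 and 5 of 168 h, and at 0.0755, 0.0548 and 0.0581 without 80 mg/kg replicate 5, 10 mg/kg replicate 1 and vehicle replicate 5 of 24 h. Without the 3 arrays of high actin ratio it was 0.69 (adjusted p = 0.0726).

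**Figure D4:**
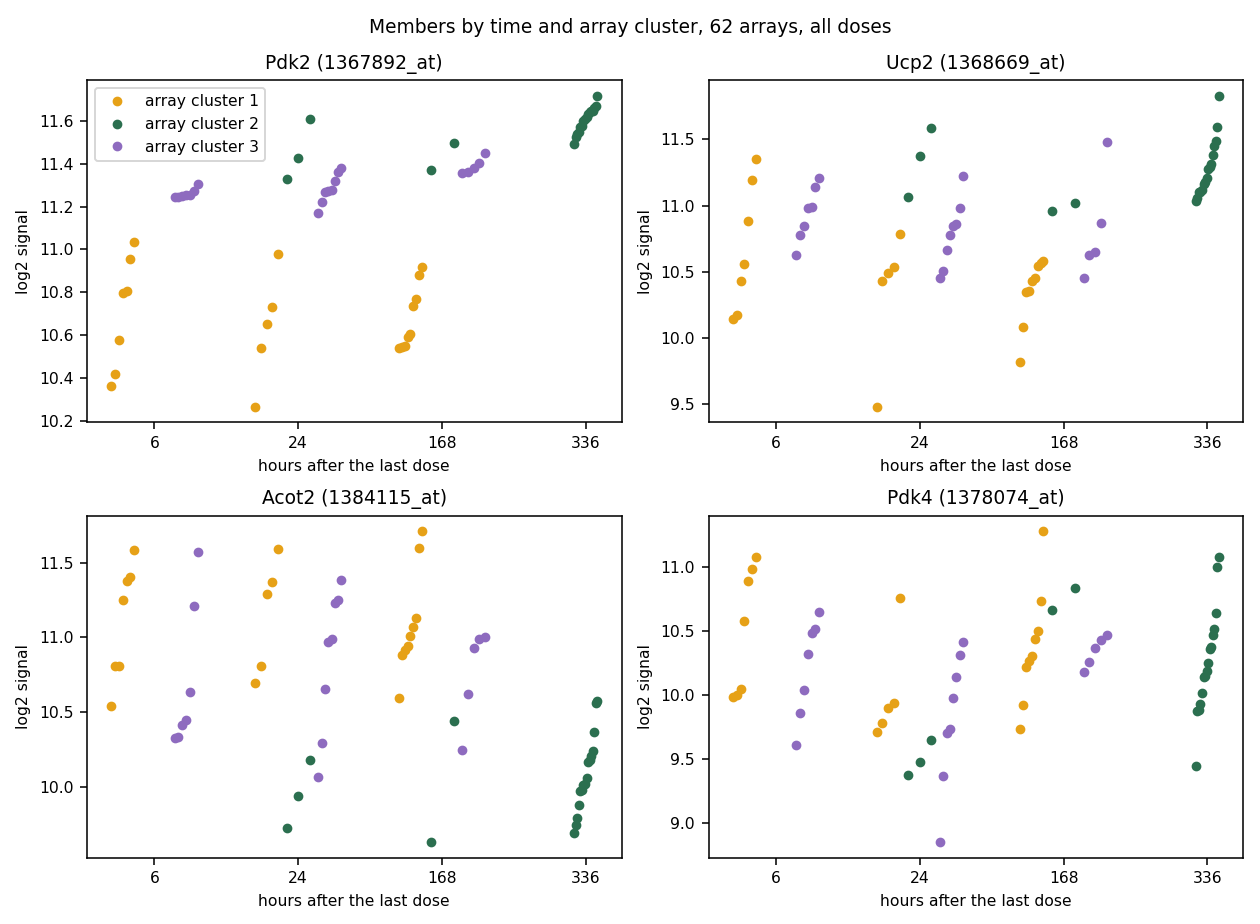
Log2 signal (quantile normalized) of member probe sets by hours after the last dose, with arrays coloured by cluster of overall expression and, within a time and cluster, set in order of value. All 16 arrays of 336 h belong to the second cluster, and the 5 arrays of that cluster from other times lie beside them for Pdk2, Ucp2 and Acot2 1384115_at.

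Within groups, arrays high in 1 member were in some cases high, and in others low, in another member. Over the 15 pairs of genes, each by its brightest probe set, deviations from the group means were correlated over the 62 arrays, with 100000 shuffles within groups and Benjamini-Hochberg adjustment over the pairs. Pdk2 and Ucp2 passed, with Pearson's r of 0.64 (adjusted permutation p = 0.00045) and Spearman's rho of 0.61 (0.00045), and r stayed at 0.64 without the 2 arrays farthest from the median of Pdk2. Pdk2 and Acot2 1384115_at passed with r of -0.57 (adjusted permutation p = 0.00172) and rho of -0.50 (0.00675), and r was -0.54 without 2 arrays. Within the 3 clusters r was 0.39, 0.48 and 0.08 for Pdk2 with Ucp2 and -0.38, -0.22 and -0.21 for Pdk2 with Acot2, and neither pair passed once cluster means were removed, where r was 0.33 and -0.21. Pdk2 with Acot2 also depended on the scaling: r was -0.31 (adjusted permutation p = 0.159) with median scaling and 0.12 (0.492), of opposite sign, on the deposited scale.

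With all 59 pairs of probe sets of different genes, a count added after the data were seen, 10 pairs passed by both measures and 7 of these kept their sign in all 3 clusters. The share of passing pairs among probe sets of other genes was not counted, here or for the brightest probe sets. Whether members pass more often than other genes therefore cannot be told from these counts. The pair of Pdk4 1378074_at with Ucp3 1387681_at depended little on the clusters, but was not alone in this. It had r of 0.63 and rho of 0.65, each with a permutation p of 1e-05, the smallest these shuffles can give, and an adjusted permutation p of 0.00059. Its r was 0.59 without the 2 arrays farthest from the median of Pdk4, 0.73, 0.50 and 0.60 within the clusters, and 0.64 with cluster means removed. The other Pdk4 probe set, 1369150_at, gave r of 0.44 (adjusted permutation p = 0.00683) and rho of 0.48 (0.00602) with the same Ucp3 probe set. The other Ucp3 probe set, 1382958_at, did not show it: r was 0.26 (adjusted permutation p = 0.256) with Pdk4 1378074_at and 0.04 (0.916) with 1369150_at. Pdk4 1369150_at also correlated with Cpt1a 1367836_at, with r of 0.64 (adjusted permutation p = 0.00059) and rho of 0.51 (0.00602), but Pdk4 1378074_at did so at 0.27 (0.149). With cluster means removed the r of 1369150_at with this Cpt1a probe set was 0.65. Pdk2 1386975_at with Cpt1a 1367836_at had r of 0.53 (adjusted permutation p = 0.0033) and 0.71 with cluster means removed, but -0.245 within the second cluster. No pair involved Acot1, which failed the filter.

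Only 1 of the 2 Ucp3 probe sets covaried with Pdk4, among pairs added after the data were seen. The brightest probe sets of Pdk4 and Ucp3 did not pass (r of 0.255, adjusted permutation p = 0.238). Both genes are classical targets of PPAR alpha, whose half-site is AGGTCA. Because of that 1 covariation and this shared receptor, the stretches of 250 bases before their annotated starts are shown. They come from the rat RefSeq annotation of the GRCr8 build, where Ucp3 lies on the plus strand (chr1:164227660-164227909) and Pdk4 on the minus strand (chr4:34568330-34568579); both are written 5' to 3' along the gene, ending just before the start, with AGGTCA in capitals.
Ucp3: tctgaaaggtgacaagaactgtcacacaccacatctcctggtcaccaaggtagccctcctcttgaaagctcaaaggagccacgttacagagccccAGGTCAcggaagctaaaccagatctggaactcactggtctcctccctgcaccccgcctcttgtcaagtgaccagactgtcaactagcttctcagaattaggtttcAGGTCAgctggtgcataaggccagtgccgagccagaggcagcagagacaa
Pdk4: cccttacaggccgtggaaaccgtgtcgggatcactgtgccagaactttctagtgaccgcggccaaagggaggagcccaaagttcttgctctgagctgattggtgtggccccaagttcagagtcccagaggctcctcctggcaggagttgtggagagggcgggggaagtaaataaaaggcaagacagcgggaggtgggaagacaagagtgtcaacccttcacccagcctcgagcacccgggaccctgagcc
AGGTCA was found at 2 places before Ucp3, beginning 155 and 50 bases before the start on the plus strand of the gene, and at no place before Pdk4 on either strand. Among all 33469 windows of this length, 14.1% held AGGTCA at least once on either strand, so that its mere presence before Ucp3 is not unusual. The share of windows with 2 matches was not counted. The full direct repeat, 2 copies of AGGTCA with any 1 base between, was in 0.0508% of windows and in none of the 7 members'. The E-box CACGTG, bound by clock factors, was in 5.59% of windows and among the members only before Pdk2, 143 bases from the start, and the forkhead motif TGTTTAC was in 3.21% and before no member. Both strands were searched, and each direct repeat also counts as AGGTCA. A match describes letters only, and no match says only that they are not in this window.

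The genes most like each member over the 62 arrays, by Pearson's r and as a description without a test, differed between members. Pdk4 1378074_at was most like Gpam (r of 0.53), Slc25a20 (0.51) and Eci1 (0.48), which act in glycerolipid synthesis, carnitine transport and fatty acid oxidation. Pdk2 1367892_at was most like Ube2m (0.96), Ppp2r1a (0.95) and Fis1 (0.95), and Ucp2 most like Phospho1 (0.82), Fam89b (0.81) and Cygb (0.78). The values for Pdk2 were far higher than those for Pdk4, and Pdk2 levels followed the clusters. Ucp3 1382958_at was most like Palmd (0.64), Asb2 (0.62) and Rcan1 (0.62), but within groups these r were 0.26, 0.22 and 0.21. Acot2 1384115_at was most like Top2b (0.84), Rab14 (0.81) and Eif3j (0.81), and Cpt1a 1386946_at most like Xbp1 (0.62), Smarca2 (0.60) and Ints13 (0.59).

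Of the wider PPAR alpha targets of fatty acid handling, 27 of 32 listed genes were tested. None was called at a single time at either dose. Averaged over the times, 2 were called at 80 mg/kg (0.478% of all probe sets): Cd36, a fatty acid transporter that PPAR gamma also drives, rose by 0.42 (SE 0.09, limma adjusted p = 0.00868), and Acadm, which oxidises medium-chain fatty acids, fell by 0.14 (SE 0.04, 0.0473). The median of the 27 was -0.09 at 80 mg/kg and -0.06 at 10 mg/kg, beside medians of all probe sets within 0.01 of 0. Both calls were lost when arrays were divided by their median or left on the deposited scale, where 26 of the 27 lay below 0 at 80 mg/kg. At 168 h 26 of the 27 lay below 0 at 80 mg/kg (median -0.13) and 26 at 10 mg/kg (median -0.11), against the same vehicle arrays. At 336 h 25 lay below 0 at 80 mg/kg (median -0.16) and 22 at 10 mg/kg (median -0.12), but on the deposited scale 14 of the 27 did at 10 mg/kg, where the median of all probe sets was 0.14. The 13 tested genes of pyruvate entry, 16 of other thioesterases, uncoupling proteins and carnitine acyltransferases, 13 of PPAR receptors and coactivators and 20 of fasting, FoxO and glucocorticoid response had 0 calls in the 15 dose comparisons. Their medians at 80 mg/kg over the times were -0.01, -0.02, 0.02 and 0.02.

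Listed genes were called more often by time than by dose, as were all probe sets (26.9% for 336 h against 168 h over the doses, and at most 0.478% by dose). For 336 h against 168 h over the 3 doses, 8 of the 27 fatty acid genes rose and 3 fell: Plin5, a lipid droplet protein, rose by 0.75 (SE 0.12, limma adjusted p = 3.49e-06), Cpt2 by 0.51 (SE 0.10, 5.5e-05) and Acadl by 0.17 (SE 0.04, 0.000297), and Cd36 fell by 0.67 (SE 0.10, 2.83e-06). Of the pyruvate genes 1 rose and 6 fell, and of the receptors and coactivators 4 rose and 3 fell. Of the other thioesterases, uncoupling proteins and carnitine acyltransferases 4 rose and 3 fell. The called genes of fasting, FoxO and glucocorticoid response, Klf9, Klf15, Cdkn1a and Cebpb, rose. All arrays of 336 h are in 1 cluster, so that these calls carry the same limit as those of Pdk2 and Ucp2, and on the deposited scale 26 of the 27 fatty acid genes lay above 0, with the median of all probe sets at 0.45. Of the 14 tested clock genes, 9 were called for 24 h against 6 h over the 3 doses (0.854% of all probe sets), 3 higher and 6 lower, with a median of -0.45: Bmal1 rose by 1.45, Per2 fell by 1.58 and Dbp fell by 1.24. Other lists held calls there too. Of the fasting, FoxO and glucocorticoid genes Tsc22d3 fell by 0.46 (limma adjusted p = 6.13e-06) and Sesn1 by 0.27 (0.0243), and Cdkn1a rose by 0.55 (0.0175). Of the pyruvate genes Pdp1 fell by 0.23 (0.00564). By their nominal intervals, 24, 168 and 336 h fall at the same hour of day as the last dose and 6 h does not. The part of the hour of day in the fall of Pdk4 between 6 and 24 h was not tested. Clock genes also moved between times of the same nominal hour. For 168 h against 24 h over the 3 doses, Dbp fell by 1.25 (limma adjusted p = 4.25e-06), Bhlhe41 by 0.70 (4.62e-08) and Nr1d2 by 0.67 (0.00155). These were 3 of 14, where 0.0483% of all probe sets were called and where Ucp3 1387681_at was called too. The real hours of sampling were not given, so that a difference in hour cannot be told apart from other causes here. At 80 mg/kg and 24 h, where Ucp3 was low, 3 of the 14 clock genes were called (0.14% of all probe sets): Bhlhe41 rose by 0.90 (SE 0.13, limma adjusted p = 8.87e-05), Bhlhe40 by 1.44 (SE 0.30, 0.0187) and Dbp by 1.36 (SE 0.28, 0.0187). Their part in the Ucp3 difference was not tested.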

How the data were processed

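Heart RNA of 62 samples was labelled with biotin and hybridised to Affymetrix rat arrays, 1 array a sample, per the labels' protocols. The deposited values are linear signal intensities for each probe set, made by the authors with GCOS and MAS5 per the submitters' processing notes; versions were not given in the sources used here. Of 31099 probe sets, 57 controls were left out. Log2 intensities were quantile normalized between arrays, probe sets with a mean at or above the 40th percentile (5.03) were kept, and limma 3.58.1 in R 4.3.3 fitted 1 mean for each of the 12 groups over all arrays, with eBayes (50 residual and 2.36 prior degrees of freedom) and Benjamini-Hochberg adjustment. A call is an adjusted p under 0.05, two-sided, and intervals are 95%. The number of arrays limits the precision. The fit was tested on simulated data.

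Gene names came from the platform annotation, which gave 1 gene for 20826 probe sets and several for 436; all 13 member probe sets matched a RefSeq symbol. Every member was named whatever its p, but of the lists only some called genes were named, at most 4 of a list in a comparison. The lists were fatty acid handling, pyruvate entry, other thioesterases, uncoupling proteins and carnitine acyltransferases, PPAR receptors and coactivators, fasting response, and the clock; a list gene was read from its brightest probe set. Members and lists were chosen with earlier results of these data known. The contrasts over 3 doses, the 59 pairs of probe sets and the list directions by scaling were chosen after the data were seen. Clusters came from k-means on the first 2 principal components. Alternatives were other scalings, offsets and filters, covariates, blocks, array weights, another prior, arrays of 1 time alone, and arrays left out.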

Additional observations from a re-analysis of the deposited data

Results flagged for a closer look

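Of 156 groups of member values, 11 held an array far from the others by Dixon's criterion, and chance gives about 1 in 20. The array of 80 mg/kg replicate 3 at 336 h was high for both Pdk4 probe sets, at 8.59 for 1369150_at (others 7.20 to 7.54) and 11.08 for 1378074_at (10.14 to 10.38). Replicate 2 of 10 mg/kg at 168 h was low for Pdk4 1378074_at, at 9.73 (10.31 to 10.51). Pdk2 1386975_at was low in vehicle replicate 1 at 24 h, at 8.23 (9.26 to 9.85), and in 80 mg/kg replicate 6 at 6 h, at 8.69 (9.25 to 9.40). Ucp2 was high in 10 mg/kg replicate 4 at 168 h, at 11.48 (10.34 to 10.63). Ucp3 1382958_at read 3.96 in 80 mg/kg replicate 2 at 6 h, its lowest value on any of the 62 arrays, where the others of the group lay between 6.21 and 7.04. Acot1, below the filter, read 4.92 in vehicle replicate 2 at 24 h (4.03 to 4.36) and 3.41 in vehicle replicate 5 at 336 h (4.69 to 5.16). Acot2 was low in 10 mg/kg replicate 5 at 168 h by 1384115_at, at 10.62 (10.99 to 11.13), and in 10 mg/kg replicate 5 at 336 h by 1388210_at, at 8.35 (8.89 to 9.13).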

How the results depend on the processing

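Member counts in all 17 dose comparisons stayed at 0 under every alternative run, except 1 (Ucp3) at 80 mg/kg and 24 h with median scaling, and were 0 to 0 with arrays left out. For vehicle at 336 h against 168 h the count of 1 became 0 on the deposited scale, with median scaling and with the cluster block, 2 with 16 added before log2, the replicate block, the actin covariate, leaving out high-actin arrays and with a trended robust prior, and 4 with the 60th percentile filter and array weights (arrays left out, 0 to 4). For 24 h against 6 h over 3 doses the count of 1 became 0 on the deposited scale, with median scaling, no filter, the cluster block, array weights, the Myl7 covariate, and without either the high-Myl7 or the high-actin arrays (0 to 1). For 168 h against 24 h the count of 1 became 0 on the deposited scale, with no filter, the actin covariate and leaving out high-actin arrays, and 2 with the 60th percentile filter and the replicate block (0 to 2). For 336 h against 168 h the count of 4 became 8 on the deposited scale and 0 with the cluster block (4 to 4). There Pdk2 1386975_at turned from 0.65 to -0.014 and Acot2 1384115_at from -0.78 to 0.21 with the cluster block, and Cpt1a 1386946_at from -0.10 to 0.37 on the deposited scale. The count of 5 for vehicle levels between times became 0 on the deposited scale and with the cluster block, 3 with median scaling, the actin covariate and without the high-Myl7 arrays, 2 with no filter and leaving out high-actin arrays, and 8 with the replicate block (2 to 6). The 2 correlated pairs became 12 on the deposited scale, which keeps brightness and where Pdk2 with Acot2 was not among them (r of 0.12), and 0 with cluster means removed. With median scaling 2 passed, Pdk2 with Ucp2 and Pdk2 with Cpt1a (r of 0.56, adjusted permutation p = 0.00142), but not Pdk2 with Acot2 (0.159). Calls over all probe sets for vehicle at 336 h against 168 h were 848, but 0 on the deposited scale, 135 with median scaling, 1181 with the replicate block and 2238 with array weights, and over the 3 doses 5004 became 5 with the cluster block. Apart from the scaling and the clusters' link to 336 h, the causes were not tested. Replicate numbers did not pair arrays: over 52 same-numbered pairs the correlation of deviations had a median of 0.01 (-0.26 to 0.34), above 0.1 in 14. Signal over background limits Acot1, and Ucp3 in part.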
